A study of Mus musculus with 4 samples.

Results

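Saa1, Saa3, Reg3b, Reg3g, Lcn2, S100a8, S100a9, Duox2, Duoxa2 and Nos2 are defence genes that colonic epithelium, or the white blood cells that enter it, can switch on during inflammation or contact with microbes. The 10 genes were found by symbol among the 50600 genes of the deposited count table, and all 10 passed the filter on low counts. They were selected on their known role and on the fold change of Saa3, which was higher in Mettl14 knockout than in wild-type cells in these same data. Their knockout to wild-type differences are therefore given as a description, and no call among them is read as a test result.

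Epithelial cells of the colon answer interleukin-22, interleukin-17, interleukin-1 and bacterial products, through STAT3, NF-kB and C/EBP transcription factors, by making antimicrobial proteins. Some kill or bind bacteria directly (the lectins encoded by Reg3b and Reg3g), some withhold metals (lipocalin 2 and calprotectin), and others release oxidants (the dual oxidase encoded by Duox2 and the nitric oxide synthase encoded by Nos2). Serum amyloid A proteins are carriers of lipids and retinol made in the acute-phase response. Calprotectin, the pair of S100a8 and S100a9, is also a main protein of neutrophils.

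RNA was measured by poly(A) RNA sequencing in primary colonic epithelial cells of C57BL/6 mice, in 2 Mettl14 knockout (KO) and 2 wild-type (WT) libraries. Mettl14 encodes a subunit of the enzyme complex that methylates adenosines in mRNA (m6A), and the design asked which transcripts differ when it is deleted. The age of the mice, the promoter or Cre line behind the deletion, any pooling of animals and how the cells were isolated are not stated in the labels. The sample titles of all 4 libraries share a further code that the labels do not explain and that was not used. By Xist and 4 Y-linked genes, KO replicate 1 was female and KO replicate 2 male, while WT replicate 1 was male and WT replicate 2 female. The libraries of a genotype thus came from different animals, although the labels do not say so or whether a library pooled several, and a p-value here covers only the spread among these 4 samples.

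Library totals lay between 22136440 and 24991060 counts. Mitochondrial genes made up 32.7% and 28.6% of the counts in KO replicates 1 and 2, and 33.8% and 28.8% in WT replicates 1 and 2. Levels are in CPM, the count scaled to library size after TMM (trimmed mean of M-values) normalization. Mettl14 had 3.99 and 3.94 CPM in the KO libraries and 11.7 and 8.67 CPM in the WT libraries (log2 fold change -1.36, SE 0.22, edgeR adjusted p = 0.0503). Epithelial markers were abundant in every library, with Krt8, an epithelial keratin, at 2250 and 1953 CPM in KO and 2380 and 3249 CPM in WT. The libraries differed within a genotype. Over 14861 genes tested with edgeR, the median absolute log2 difference was 0.15 between the KO libraries and 0.24 between the WT libraries. Fibroblast and haemoglobin transcripts stood apart in KO replicate 2, where Col3a1, a fibrillar collagen, had 308 CPM against 34.2 CPM in KO replicate 1 and 27.2 and 38.9 CPM in WT, and Col1a1, Col1a2, Hbb-bs, Hba-a1 and Hba-a2 were likewise highest there. At an edgeR adjusted p under 0.05, 1.72% of genes were called higher in KO (255) and 1.9% lower (282), and with scaling by library size alone 604 were higher and 186 lower. That scaling moved the median log2 fold change of all genes to 0.15, against -0.01 with TMM. With TMM and all libraries, 2203 of the 14861 genes were higher and 2329 lower at an unadjusted p below 0.05 by edgeR. These are the background for such counts in the lists below. DESeq2 called 952 of the 14861 genes higher and 975 lower, which is the background for its counts in the lists. Without KO replicate 1 edgeR called 0 genes (1219 higher and 1038 lower at an unadjusted p below 0.05) and without KO replicate 2 also 0 (1010 higher and 977 lower), so every edgeR call named here ended in both fits. Leaving out a WT library gave more calls, 529 higher and 719 lower without replicate 1 and 1271 higher and 1019 lower without replicate 2.

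Of the 10 genes, 1 was called, Saa3, which was higher in KO, beside 1.72% of all genes in that direction. Saa3 was also the gene that entered the choice, so nothing is read from this count. The log2 fold changes were positive for 9 of 10 genes and their median was 1.07, against -0.01 over all genes tested. Both KO libraries lay above both WT libraries in 2 of 10, Saa3 and Reg3g, where 31.1% of all genes did so. None of the 10 had both KO libraries below both WT libraries, where 32.2% of all genes did. In the other 8 genes the genotypes overlapped.

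**Figure D1:**
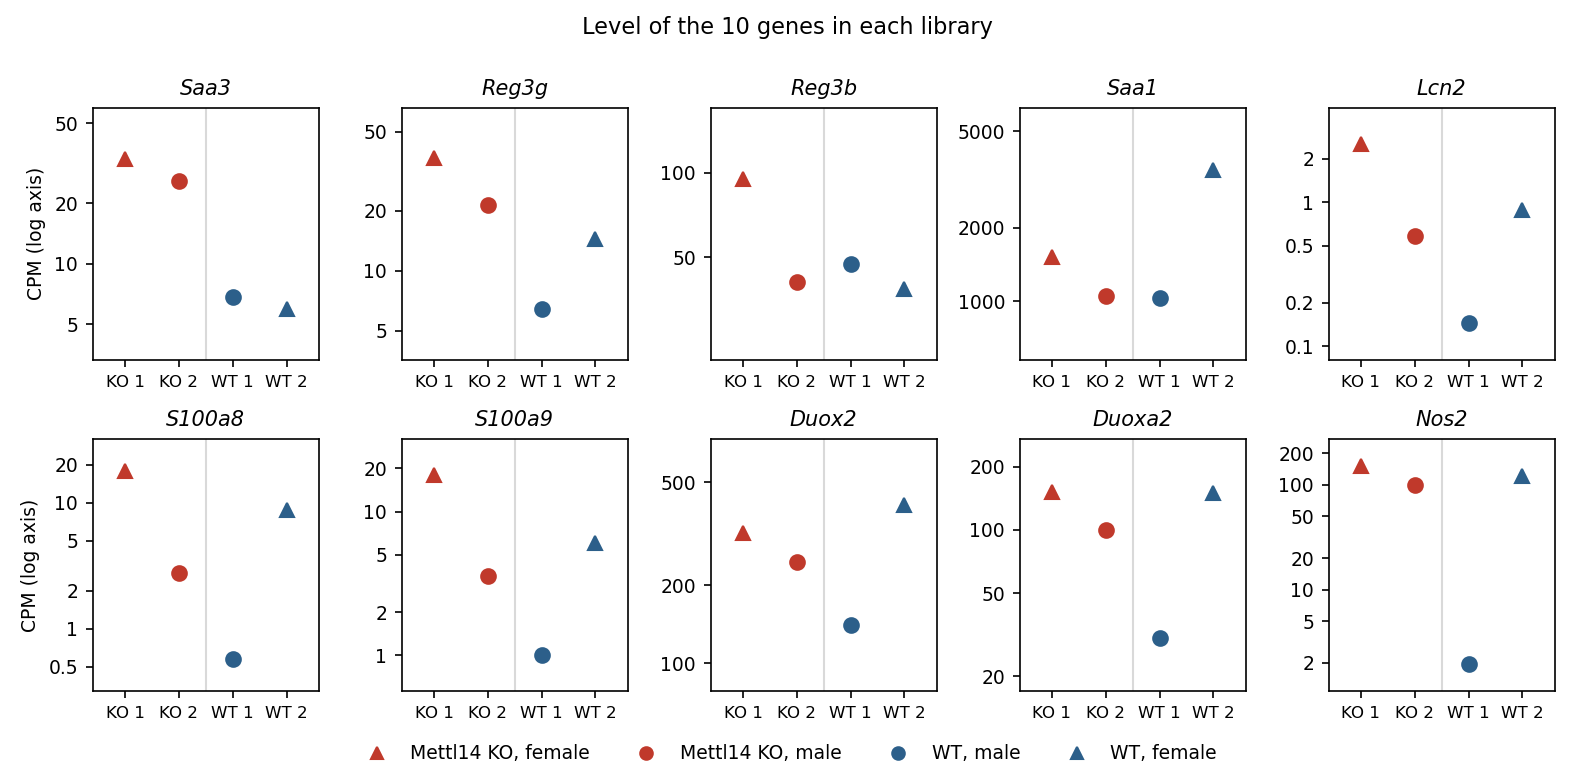
CPM of each of the 10 genes (log axis, its own range in each panel) in the 2 KO libraries (red) and the 2 WT libraries (blue), with triangles for female and circles for male libraries and 1 point a library. Saa3 was at 33.2 and 25.9 CPM in KO and 6.79 and 5.98 CPM in WT, whereas Nos2 was at 1.93 CPM in WT replicate 1 and between 99.4 and 153 CPM in the other libraries.

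Saa3 is a serum amyloid A gene that mouse epithelium, macrophages and fat tissue express locally in inflammation (ENSMUSG00000040026, chr7:46711998-46715700, minus strand, GRCm38). It had 33.2 and 25.9 CPM in KO, from 749 and 665 counts, and 6.79 and 5.98 CPM in WT, from 141 and 142 counts. Both KO libraries were high and both WT libraries low, and the gap between genotypes was wider than the spread within either. Saa3 entered the choice of genes by this difference, so the gap and the values below are only a description. The means were 29.6 ± 5.16 CPM in KO and 6.38 ± 0.578 CPM in WT (SD, n = 2 each), a log2 fold change of 2.21 (SE 0.18). Between libraries of the same sex, the log2 difference KO minus WT was 2.38 in females and 1.86 in males. With 1 library left out, the fitted log2 fold change was 2.01 without KO replicate 1, 2.30 without WT replicate 1 and 2.15 without WT replicate 2, and it was highest without KO replicate 2. Of the 10 genes, Saa3 had the smallest difference between the WT libraries relative to all genes, with rank 9174 of 14861 in absolute size.

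Saa1, which encodes a main circulating acute-phase serum amyloid A, lies on the same stretch of chromosome 7 (ENSMUSG00000074115, chr7:46740497-46742980, minus strand) and did not follow Saa3. It had 1518 and 1047 CPM in KO and 1032 and 3473 CPM in WT. WT replicate 2 was high and the other libraries were within a narrow range, so the genotypes overlapped. The log2 fold change was -0.81 (SE 0.61), and it was -1.45 without WT replicate 1 and 0.35 without WT replicate 2. The ratio of Saa1 to Saa3 counts was 45.7 and 40.4 in the KO libraries and 152 and 581 in the WT libraries. The coding sequences of Saa1 and Saa3 were 75.7% identical, and 1.78% of the 50-base stretches of the Saa3 transcript also occurred in Saa1. Saa1 shared more, 14.8%, with Saa2 and Saa3, and its coding sequence was 95.1% identical to that of Saa2. Counts split between Saa1 and Saa2 are thus uncertain. Saa2 had 49 and 43 counts in KO and 45 and 136 in WT, which depend on the same split.

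The promoters of the 2 genes are shown because these neighbouring paralogs differed in profile across the libraries. They are RefSeq sequences of GRCm38.p6, from 250 bases before to 50 after the start, on the minus strand, and capitals mark matches to an NF-kB motif (GGG, any 5 bases, then CC), a STAT motif (TTCNNNGAA), a C/EBP motif (TTNNGCAA) or a TATA box (TATAAA), on either strand. Saa3 covers chr7:46715627-46715926 and Saa1 covers chr7:46742931-46743230.
Saa3: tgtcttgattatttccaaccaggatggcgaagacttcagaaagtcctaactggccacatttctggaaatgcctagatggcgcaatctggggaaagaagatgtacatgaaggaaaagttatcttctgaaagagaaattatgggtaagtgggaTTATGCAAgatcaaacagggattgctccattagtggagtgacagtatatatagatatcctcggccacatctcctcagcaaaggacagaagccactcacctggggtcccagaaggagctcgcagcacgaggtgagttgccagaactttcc
Saa1: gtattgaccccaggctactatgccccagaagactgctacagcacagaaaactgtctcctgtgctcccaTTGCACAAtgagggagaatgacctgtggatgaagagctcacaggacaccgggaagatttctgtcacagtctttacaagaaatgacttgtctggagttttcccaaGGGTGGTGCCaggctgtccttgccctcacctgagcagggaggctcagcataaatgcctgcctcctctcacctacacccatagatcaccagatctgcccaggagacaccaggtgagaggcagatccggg
The Saa3 promoter held 1 match, to C/EBP at positions -99 to -92 counted from the start. The Saa1 promoter held a C/EBP match at -182 to -175 and an NF-kB match at -78 to -69. Aligned end to end, the pair were 50.1% identical. A C/EBP match was present in 10.8% of 27025 promoters of this length and an NF-kB match in 50.4%.

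Reg3g and Reg3b encode C-type lectins of the gut that bind bacteria. Reg3g (ENSMUSG00000030017, chr6:78466269-78468872, minus strand) had 36.8 and 21.4 CPM in KO and 6.41 and 14.5 CPM in WT. Both KO libraries lay above both WT libraries, with WT replicate 1 lowest. The means were 29.1 ± 10.9 CPM in KO and 10.4 ± 5.71 CPM in WT (SD, n = 2 each), a log2 fold change of 1.47 (SE 0.48). It was 0.99 without WT replicate 1 and 2.21 without WT replicate 2. Within sex the log2 difference was 1.31 in females and 1.66 in males.

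Reg3b (ENSMUSG00000071356, chr6:78370657-78373466, plus strand) had 95.1 and 40.7 CPM in KO and 47.2 and 38.6 CPM in WT. KO replicate 1 was high and the other libraries overlapped, with a log2 fold change of 0.66 (SE 0.42) that became -0.09 without KO replicate 1. The ratio of Reg3b to Reg3g counts was 2.59 and 1.90 in KO and 7.37 and 2.67 in WT. It was thus higher in WT replicate 1 than in the other libraries. The coding sequences of the pair were 76.0% identical and shared no stretch of 50 bases with each other or any other gene's transcript.

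The Reg3 promoters are shown because, of the 3 gene pairs aligned, they were the most alike, with 68.6% identity. Capitals mark the same motifs. Reg3g covers chr6:78468825-78469124 on the minus strand and Reg3b covers chr6:78370635-78370934 on the plus strand.
Reg3g: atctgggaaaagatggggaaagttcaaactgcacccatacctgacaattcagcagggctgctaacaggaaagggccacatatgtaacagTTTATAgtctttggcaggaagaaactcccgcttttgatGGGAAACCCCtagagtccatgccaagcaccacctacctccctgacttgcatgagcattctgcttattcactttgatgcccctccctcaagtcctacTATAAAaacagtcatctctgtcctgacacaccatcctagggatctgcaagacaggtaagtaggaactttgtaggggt
Reg3b: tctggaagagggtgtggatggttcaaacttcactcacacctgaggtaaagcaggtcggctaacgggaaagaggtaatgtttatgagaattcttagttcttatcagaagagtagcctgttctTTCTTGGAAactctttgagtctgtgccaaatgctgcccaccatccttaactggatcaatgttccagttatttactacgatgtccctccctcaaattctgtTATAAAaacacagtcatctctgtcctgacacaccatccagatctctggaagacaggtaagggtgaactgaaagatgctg
Both held a TATA box, at -27 to -22 in Reg3g and -29 to -24 in Reg3b. Reg3g held a further match to the letters TATAAA on the other strand at -161 to -156. Reg3g held an NF-kB match at -123 to -114, and Reg3b held a STAT match at -129 to -121. The letters TATAAA were present in 14.2% and a STAT match in 8.47% of all promoters. Over the 9 of 10 genes with a promoter in the table, 3 held an NF-kB match, 4 a C/EBP match, 1 a STAT match and 5 a TATAAA match. The only TATAAA match of S100a9 lay after the start, at 1 to 6. In the 150 bases before the start 4 of the 9 held TATAAA, where 8.08% of all promoters did.

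Lcn2 encodes lipocalin 2, which binds the siderophores that bacteria use to take up iron (ENSMUSG00000026822, chr2:32384633-32388252, minus strand). Its level was low, with 57 and 15 counts in KO and 3 and 21 counts in WT, or 2.53 and 0.58 CPM in KO and 0.14 and 0.88 CPM in WT. KO replicate 1 was high, WT replicate 1 was at the limit that a count of 0 allows (3 counts), and the remaining KO and WT libraries overlapped. Its log2 fold change was 1.55 with an SE of 1.07, and 0.15 without KO replicate 1. At 3 counts the exact Poisson 95% interval is 0.619 to 8.77 counts, which covers counting error only.

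S100a8 and S100a9 encode the calprotectin subunits and sit close together on chromosome 3 (ENSMUSG00000056054, chr3:90668978-90670035, plus strand, and ENSMUSG00000056071, chr3:90692632-90695721, minus strand). S100a8 had 17.9 and 2.77 CPM in KO and 0.58 and 8.80 CPM in WT. S100a9 had 17.9 and 3.59 CPM in KO and 1.01 and 6.02 CPM in WT. For both, KO replicate 1 was highest, WT replicate 2 next and WT replicate 1 lowest. The log2 fold change of S100a8 was 1.12 (SE 1.36), -0.78 without KO replicate 1 and 4.17 without WT replicate 2. That of S100a9 was 1.59 (SE 1.09), 0.01 without KO replicate 1 and 3.43 without WT replicate 2. The sign of the S100a8 estimate thus changed without KO replicate 1. Within sex the log2 difference KO minus WT of S100a8 was 0.98 in females and 1.60 in males. Each sex has 1 library a genotype, so sex cannot be told apart from any other difference between the animals. The count ratio of S100a8 to S100a9 stayed between 0.571 and 1.46 in the 4 libraries.

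Neutrophil markers moved in part with S100a8 and S100a9 over the libraries. Of 18 markers, 12 passed the filter, all 12 had a positive log2 fold change (median 1.29) and neither edgeR nor DESeq2 called any (0 each). By edgeR 2 of them were higher at an unadjusted p below 0.05. WT replicate 1 was lowest in 11 of 12 and KO replicate 1 highest in 9, but the full library order of S100a8 was found in 5 of 12. Their summed level over all 18 was 307 and 205 CPM in KO and 53.4 and 201 CPM in WT, and without Ly6g and Cd177, set aside after their values were seen, it was 40.3 and 16.2 CPM in KO and 5.93 and 17.0 CPM in WT. Csf3r, the receptor for granulocyte colony-stimulating factor, had 8.51 and 1.79 CPM in KO and 0.82 and 3.20 CPM in WT, the library order of S100a8. Ly6g, a surface protein of mouse neutrophils, had 90.1 and 87.0 CPM in KO and 38.2 and 129 CPM in WT, highest in WT replicate 2. Cd177, another neutrophil surface protein, had 177 and 102 CPM in KO and 9.30 and 55.8 CPM in WT. Elane, a granule protease made in neutrophil precursors, was at 0 in every library, and Mpo, the granule peroxidase, had 1 count in KO replicate 1 and 0 in the others. Mature neutrophils carry little RNA of these granule genes. Ngp, Camp and Retnlg of the list were highest in KO replicate 2. Ngp had 3 and 25 counts in KO and 0 and 2 in WT, and Camp had 0 and 10 in KO and 0 in WT. Retnlg had 31 and 39 counts in KO and 30 and 17 in WT. Elane, Mpo, Ngp, Camp and Retnlg are named outside the rule for the lists. The part of neutrophils in these levels was not tested, and in bulk RNA fewer cells of a type cannot be told apart from less RNA per cell.

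Duox2 and Duoxa2 encode the oxidase that makes hydrogen peroxide at the apical surface and the factor it needs to leave the endoplasmic reticulum. They are arranged head to head on chromosome 2 (ENSMUSG00000068452, chr2:122279247-122298449, minus strand, and ENSMUSG00000027225, chr2:122298900-122302885, plus strand), with 673 bases between the RefSeq starts. Duox2 had 317 and 246 CPM in KO and 140 and 408 CPM in WT. Duoxa2 had 151 and 100.2 CPM in KO and 30.6 and 149.8 CPM in WT. WT replicate 1 was lowest in both genes. The KO libraries lay between the WT libraries, except that Duoxa2 in KO replicate 1 was level with WT replicate 2. The log2 fold changes were 0.04 (SE 0.53) for Duox2 and 0.48 (SE 0.75) for Duoxa2. Duox2 turned to -0.54 without WT replicate 1 and was 1.04 without WT replicate 2, and Duoxa2 was -0.26 and 2.07 in the same fits.

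The ratio of Duox2 to Duoxa2 counts was 2.10 and 2.46 in KO and 4.58 and 2.72 in WT, again highest in WT replicate 1. Duoxa1 overlaps Duoxa2 on the opposite strand, and 41.1% of the 50-base stretches of the Duoxa2 transcript also occurred in Duoxa1. Whether the counting used strand is not stated, so the split of reads within this pair is uncertain. Duoxa1 held 27 and 12 counts in KO and 15 and 39 in WT, which depend on the same split. Duox1, the other dual oxidase, had 0.62 and 0.78 CPM in KO and 0.10 and 0.21 CPM in WT. Its coding sequence was 78.6% identical to that of Duox2.

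The promoters of this divergent pair are shown because their genes had similar profiles over the libraries. Capitals mark the same motifs, and the windows are chr2:122298178-122298477 on the minus strand for Duox2 and chr2:122298650-122298949 on the plus strand for Duoxa2.
Duox2: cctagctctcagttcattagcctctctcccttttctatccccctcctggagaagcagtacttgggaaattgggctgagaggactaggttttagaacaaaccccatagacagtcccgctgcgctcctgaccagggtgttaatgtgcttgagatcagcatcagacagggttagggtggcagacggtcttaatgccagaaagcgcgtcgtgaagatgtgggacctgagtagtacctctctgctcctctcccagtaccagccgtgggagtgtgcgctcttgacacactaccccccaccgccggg
Duoxa2: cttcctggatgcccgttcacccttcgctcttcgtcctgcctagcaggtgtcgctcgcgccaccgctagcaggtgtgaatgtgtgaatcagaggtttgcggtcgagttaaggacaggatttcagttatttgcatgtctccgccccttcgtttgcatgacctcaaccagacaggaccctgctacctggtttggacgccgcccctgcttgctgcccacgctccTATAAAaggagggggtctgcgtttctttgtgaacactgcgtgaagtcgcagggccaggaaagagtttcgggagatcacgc
The Duoxa2 promoter held a TATA box at -30 to -25, and the Duox2 window held none of the 4 motifs. That says only that these letters are not in this window.

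Nos2 encodes the inducible nitric oxide synthase, which makes nitric oxide from arginine in epithelium and macrophages (ENSMUSG00000020826, chr11:78920787-78960254, plus strand). It had 153 and 99.4 CPM in KO and 1.93 and 123 CPM in WT, from 3461 and 2552 counts in KO and 40 and 2917 counts in WT. The 2 WT libraries differed 63.7-fold, while the KO libraries and WT replicate 2 were alike in level. In absolute log2 difference between the WT libraries, Nos2 ranked 5 of 14861 genes, at 5.67. The log2 fold change of 1.02 (SE 1.55) was 0.03 without WT replicate 1 and 6.06 without WT replicate 2, so it depended on which WT library was kept. The exact Poisson 95% interval of the 40 counts is 28.6 to 54.5 counts, which covers counting error only.

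**Figure D2:**
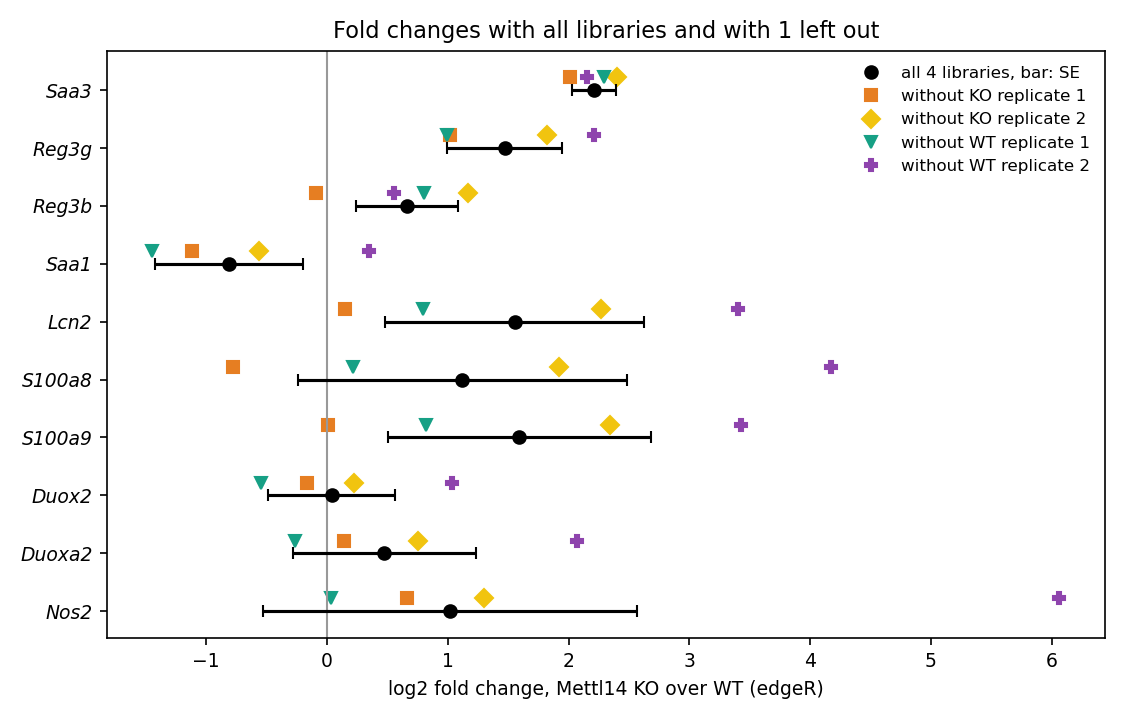
The log2 fold change KO over WT of each gene (edgeR) with all 4 libraries (black, bars are the SE) and with 1 library left out (coloured). For Saa3 all estimates lay at 2.01 or above, whereas for Nos2 those without a WT library were 0.03 and 6.06.

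WT replicate 1 stood apart in most of the 10 genes. It was the lowest library in 8 of 10 genes, all but Saa3 and Reg3b, where 28.2% of all genes had it lowest. KO replicate 1 was the highest in 8 of 10, all but Saa1 and Duox2, where 22.5% of all genes had it highest. In Saa1 and Duox2 the highest was WT replicate 2. The order KO replicate 1, WT replicate 2, KO replicate 2 and WT replicate 1, from the highest, was seen in 5 of 10 genes, namely Lcn2, S100a8, S100a9, Duoxa2 and Nos2, where 3.75% of all genes had it. This order places both female libraries above both male ones, and KO above WT within each sex. Within sex the log2 difference of S100a9 was 1.49 in females and 1.43 in males. With sex as a covariate edgeR called 3 of 10 genes higher in KO, Saa3, Reg3g and S100a9, beside 696 of all 14861 genes. This count is given without a reading, since the choice of genes used this contrast. These genes share inducers and libraries and are not independent of each other.

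The median log2 fold change of the 10 genes was 1.07 with all libraries. It was 0.07 without KO replicate 1, 1.56 without KO replicate 2, 0.51 without WT replicate 1 and 2.18 without WT replicate 2. Within sex, where each group has 1 library and no test can be made, the median log2 difference KO minus WT was 1.06 in females and 1.52 in males. In females it ran from -1.19 (Saa1) to 2.38 (Saa3), and in males from -0.21 (Reg3b) to 5.36 (Nos2).

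**Figure D3:**
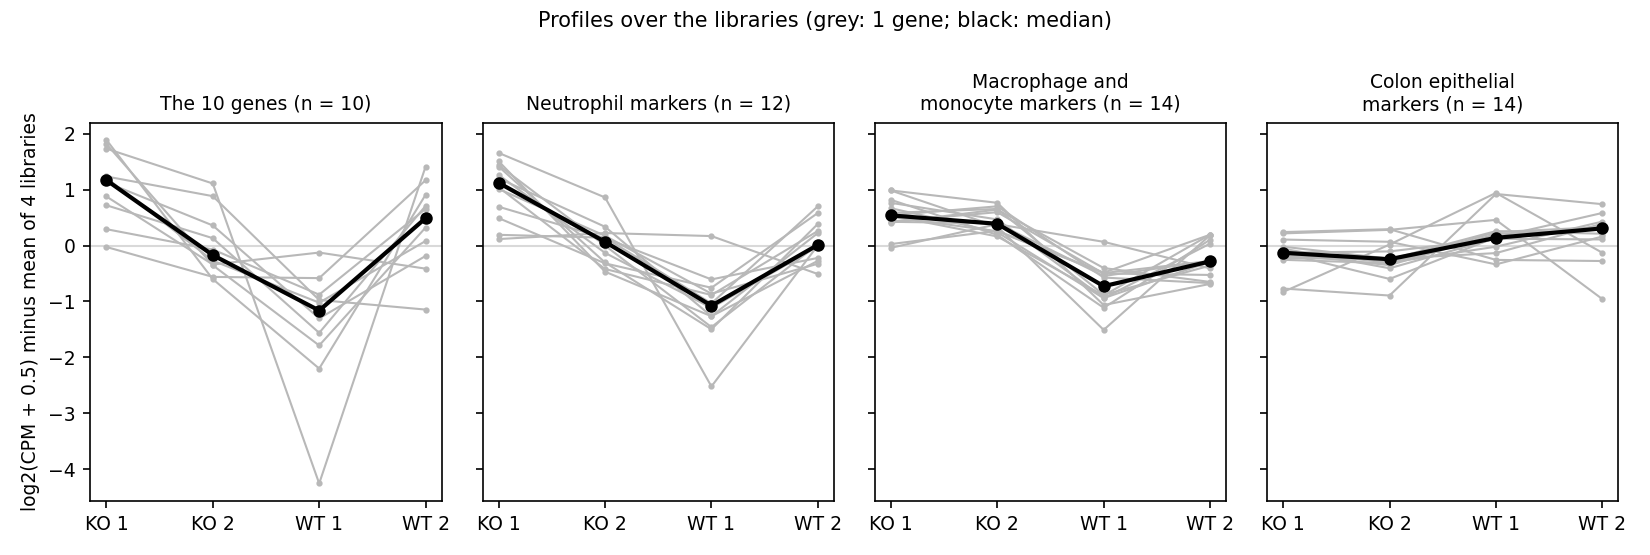
Log2(CPM + 0.5) of each gene minus its mean over the 4 libraries, for the 10 genes and for the tested neutrophil, macrophage and epithelial markers, with 1 grey line a gene and the median in black. WT replicate 1 was lowest in 8 of the 10 genes, 11 of 12 neutrophil markers and 10 of 14 macrophage and monocyte markers, but in 1 of 14 epithelial markers.

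Markers of macrophages and monocytes lay mostly higher in both KO libraries. Of 14 tested, edgeR called 3 higher and 0 lower (8 higher and 0 lower at an unadjusted p below 0.05) and DESeq2 6 higher and 0 lower. Among all 14861 genes DESeq2 called 952 higher and 975 lower. All 14 markers had a positive log2 fold change (median 1.11). In 11 of the 14 both KO libraries lay above both WT libraries, as in Saa3 and in 31.1% of all genes. Their summed level was 271 and 228 CPM in KO and 96.3 and 157 CPM in WT. Itgam, the integrin CD11b, had 26.3 and 22.5 CPM in KO and 5.97 and 7.91 CPM in WT (log2 fold change 1.81, edgeR adjusted p = 0.0434). Cx3cr1, the fractalkine receptor of tissue macrophages, had 12.4 and 13.9 CPM in KO and 5.44 and 5.05 CPM in WT (1.32, edgeR adjusted p = 0.0434). The complement gene C1qa had 10.9 and 12.3 CPM in KO and 5.49 and 5.39 CPM in WT (1.09, edgeR adjusted p = 0.0465). Macrophages can express Saa3, and their part in its level was not tested. Cd14, a receptor for bacterial lipopolysaccharide, had 66.1 and 42.6 CPM in KO and 17.0 and 40.1 CPM in WT, and the lysozyme gene Lyz2 had 45.8 and 35.2 CPM in KO and 16.7 and 36.0 CPM in WT. No marker of the list was at 0 in any library.

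Epithelial markers had mostly negative log2 fold changes. Of 14 tested, edgeR called 0 higher and 1 lower (1 higher and 6 lower at an unadjusted p below 0.05), and DESeq2 called 1 higher and 5 lower. Among all 14861 genes DESeq2 called 952 higher and 975 lower. In 9 of the 14 both KO libraries lay below both WT libraries, where 32.2% of all genes did so. The gene that fell by edgeR was Aqp8, a water channel of surface colonocytes, with 345 and 316 CPM in KO and 1113 and 981 CPM in WT (log2 fold change -1.67, edgeR adjusted p = 0.0434). Negative log2 fold changes were found in 11 of 14 (median -0.45), and the summed level was 10468 and 9765 CPM in KO and 13142 and 14544 CPM in WT. Lgals4, an intestinal galectin, had 1784 and 1550.4 CPM in KO and 2279 and 2425 CPM in WT. Ptprc, the leukocyte antigen CD45, had 86.8 and 69.6 CPM in KO and 63.1 and 77.6 CPM in WT. None of 6 fibroblast markers or 4 haemoglobin genes tested was called by edgeR, with 1 and 0 of them at an unadjusted p below 0.05 and 1 and 0 called by DESeq2.

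Cytokines listed as possible inducers of such genes were read from the same libraries, and whether they induce the 10 genes here was not tested. Of 18 listed, 16 were found in the table and 11 passed the filter, with 0 called by edgeR (3 higher at an unadjusted p below 0.05) and 1 called higher by DESeq2. The log2 fold change was positive in 9 of 11 (median 0.97), and WT replicate 1 was lowest in 9 of 11. Il1b, the interleukin-1 beta gene, had 1766 and 539 counts in KO and 117 and 750 counts in WT (1.41, edgeR adjusted p = 0.385), the library order of S100a8. Tnf, the tumour necrosis factor gene, had 36.0 and 32.8 CPM in KO and 2.75 and 19.4 CPM in WT (1.63, edgeR adjusted p = 0.266). Il18, an epithelial cytokine, had 28.7 and 13.2 CPM in KO and 23.6 and 40.5 CPM in WT (-0.62, edgeR adjusted p = 0.409). Il22 and Il17a, chosen after their values were seen because they encode the main inducers, were near the filter. Il22 had 0.71 and 0.55 CPM in KO and 0.05 and 0.67 CPM in WT, and Il17a had 2.53 and 1.09 CPM in KO and 0.43 and 1.60 CPM in WT.

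Among 23 receptors and adaptors, edgeR called 2 higher and 0 lower (6 higher and 3 lower at an unadjusted p below 0.05), and DESeq2 called 3 higher and 2 lower. Il1r1, the signalling receptor for interleukin-1, had 17.2 and 18.9 CPM in KO and 7.80 and 8.08 CPM in WT (log2 fold change 1.18, SE 0.14, edgeR adjusted p = 0.0434). Il6st, the gp130 subunit shared by receptors of the interleukin-6 family, had 44.7 and 55.5 CPM in KO and 19.6 and 23.7 CPM in WT (1.21, SE 0.17, edgeR adjusted p = 0.0444). Both genes are named because they were called, so nothing is read from the gap between their KO and WT libraries. Of the 23, 11 had both KO libraries above both WT libraries, where 31.1% of all genes did. Another 5 had both below, where 32.2% of all genes did. The interferon gamma receptor genes Ifngr1 and Ifngr2, the most abundant of the list, were not called (log2 fold changes -0.23 and -0.31).

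Of 18 transcription factor and feedback genes, edgeR called none (4 higher and 2 lower at an unadjusted p below 0.05) and DESeq2 called 3 higher and 2 lower. Among these 18, 15 had a positive log2 fold change (median 0.41) and 15 had WT replicate 1 lowest. Tnfaip3, a feedback inhibitor of NF-kB, had 251 and 202 CPM in KO and 64.8 and 203 CPM in WT (0.76, edgeR adjusted p = 0.401). Atf3, a stress-induced factor, had 273 and 141 CPM in KO and 365 and 583 CPM in WT (-1.19, edgeR adjusted p = 0.140). Hnf4a, a factor of epithelial differentiation, had 344 and 342 CPM in KO and 570 and 508 CPM in WT (-0.65, edgeR adjusted p = 0.0666).

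Among 25 other antimicrobial and mucosal defence genes edgeR called none (1 higher and 2 lower at an unadjusted p below 0.05) and DESeq2 called 2 lower. Their log2 fold changes were positive in 14 and had a median of 0.26. The 3 most abundant were highest in WT replicate 2. Lypd8, which keeps flagellated bacteria off the colonic epithelium, had 10282 and 8046 CPM in KO and 10188 and 18501 CPM in WT. Dmbt1, a secreted scavenger receptor that binds bacteria, had 8953 and 5479 CPM in KO and 4666 and 11641 CPM in WT. The transmembrane mucin gene Muc13 had 2180 and 1679 CPM in KO and 1748 and 2683 CPM in WT. This was the library that was also highest for Saa1 and Duox2.

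Close relatives of the 10 genes were not called by edgeR either, 0 of 16 tested (5 higher and 2 lower at an unadjusted p below 0.05), while DESeq2 called 2 higher and 2 lower. S100a6, a calcium-binding protein of epithelium, had 750 and 616 CPM in KO and 1183 and 1618 CPM in WT (log2 fold change -1.04, edgeR adjusted p = 0.0697). S100a10, the annexin A2 partner, had 211 and 167 CPM in KO and 276 and 360 CPM in WT (-0.75, edgeR adjusted p = 0.0938). For both S100 genes KO lay below WT, whereas S100a8 and S100a9 overlapped. They were the only 2 of the 16 with both KO libraries below both WT libraries, and 6 had both above. Among those 6 was S100a11, named outside the rule for the lists, with 129 and 103 CPM in KO and 37.5 and 64.9 CPM in WT. Over all genes, 32.2% had both KO libraries below and 31.1% both above. Noxo1, an organiser of the colonic oxidase NOX1, had 118 and 120 CPM in KO and 96.3 and 87.9 CPM in WT (0.37, edgeR adjusted p = 0.112).

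Partners of the nitric oxide and peroxide enzymes gave 0 edgeR calls of 14 tested (3 higher and 2 lower at an unadjusted p below 0.05) and 3 higher and 2 lower by DESeq2, with a median log2 fold change of 0.06. Gpx1, a glutathione peroxidase that removes hydrogen peroxide, had 230 and 214 CPM in KO and 111 and 166 CPM in WT (0.68, edgeR adjusted p = 0.128). The peroxiredoxin gene Prdx1 had 195 and 182 CPM in KO and 239 and 219 CPM in WT, and Prdx6 had 416 and 445 CPM in KO and 261 and 600.2 CPM in WT.

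The levels of the 10 genes were ordered per kilobase of the principal transcript. Saa1 stood highest, with a mean of 2902 CPM per kb, and its lowest library was above every library of the other genes. Reg3b (70.7), Duoxa2 (67.8), Duox2 (48.4), Saa3 (32.4), Nos2 (27.5), Reg3g (25.6), S100a8 (15.4), S100a9 (13.7) and Lcn2 (1.13 CPM per kb) followed, and each overlapped its neighbour in that order over the 4 libraries. Per kilobase of all exons merged, Saa1 was still highest at 713 CPM per kb, but Saa3 stood at 6.90 CPM per kb, below Reg3g and both S100 genes. The merged exons of Saa3 span 2606 bases and its principal transcript 555 bases.

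**Figure D4:**
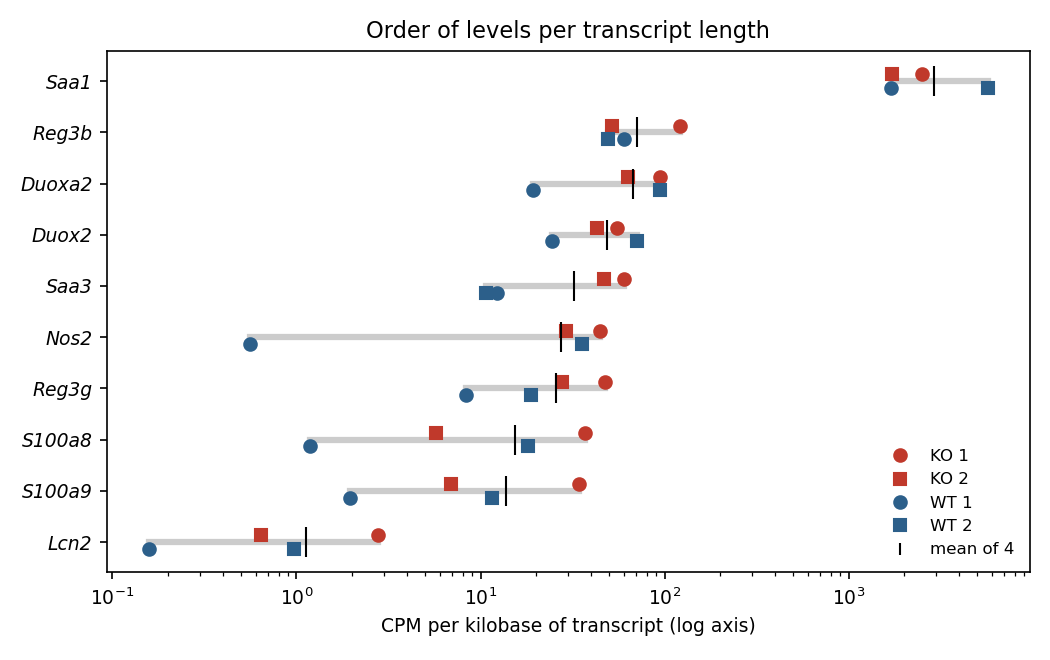
CPM per kilobase of principal transcript (log axis) for the 10 genes, in order of their mean (black tick), with KO libraries in red and WT libraries in blue, circles for replicate 1 and squares for replicate 2, and a grey bar over the range. Saa1 averaged 2902 CPM per kb and Lcn2 1.13, and below Saa1 the ranges of neighbours in the order overlapped.

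Profiles were also compared with those of 9766 other genes, by the Euclidean distance between log2 CPM values centred over the 4 libraries. Closest to Saa3 were Trabd2b (distance 0.20), the chemokine gene Ccl9 (0.32) and Gemin4 (0.35). Ccl9 had 43.6 and 43.5 CPM in KO and 9.20 and 10.1 CPM in WT. Closest to Reg3g were Tnfrsf1b, a receptor of tumour necrosis factor (0.10), Slc15a3 (0.13) and the interleukin gene Il1a (0.13). Tnfrsf1b had 79.4 and 51.2 CPM in KO and 14.8 and 33.7 CPM in WT.

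Lcn2 was closest to Cpne2 (0.20), the plasminogen activator gene Plat (0.28) and the transglutaminase gene Tgm2 (0.41), and Duox2 to Slc45a3 (0.12), the growth factor gene Areg (0.15) and the interferon regulatory factor gene Irf4 (0.19). Areg, an epidermal growth factor receptor ligand, had 112 and 76.8 CPM in KO and 49.7 and 136 CPM in WT. Among the 10 genes themselves, the closest profiles were Reg3g with Lcn2 (0.74), S100a8 with S100a9 (0.76), Saa1 with Duox2 (0.83) and Duox2 with Duoxa2 (0.83). With 4 libraries, a short distance says only that the levels ran alike here.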

How the data were processed

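Counts per gene were used as deposited by the authors. They are whole numbers that are not normalized, judged from totals that differ between libraries. The submitters' processing notes list STAR 2.4.2a, RSEM 1.2.29, FastQC 0.11.2 and the build mm10, with no role for any. No source used here gives the annotation release, the strandedness of the counting or whether the counts are rounded estimates. Identifiers were matched to GENCODE release M21 (99.56%), on GRCm38, the assembly of mm10, and 0 columns of the table were left without a sample.

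Groups follow the genotype label, and replicates are numbered in accession order. Genes were kept with filterByExpr, scaled with TMM and tested with the quasi-likelihood F-test of edgeR (version 4.0.16 in R 4.3.3, robust, 2 residual degrees of freedom), two-sided, with Benjamini-Hochberg adjustment over all 14861 genes and a threshold of 0.05. The fit was tested on simulated counts. The members and the 12 lists of other genes were chosen with earlier results of these data known. Of 205 list entries 203 were found by symbol, and Il36a and Il36g were not found. Camp and Ltf stand in the neutrophil and antimicrobial lists, and Lyz2 in the macrophage and antimicrobial lists. The text names every called gene of a list (at most 6) and the 2 most abundant, or the 3 most abundant where none was called, plus the 3 nearest profiles of 4 genes among those with a mean CPM of at least 5. A gene that this rule takes is not reported here. Log2 CPM used an offset of 0.5. Promoters are from RefSeq (GRCm38.p6), and Nos2 had no entry. Coding sequences were aligned in place of proteins. A count of 0 allows up to 3 counts, or 0.117 to 0.145 CPM, for counting error only. Alternatives were other scaling factors, DESeq2 1.42.0, other filters, sex as a covariate, other offsets, a shorter promoter window and omission of each library.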

Additional observations from a re-analysis of the deposited data

Results flagged for a closer look

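For 3 of the 10 genes, the log2(CPM + 0.5) difference KO minus WT had opposite signs in the female and the male libraries, although for Saa1 the male difference was close to 0. Saa1 differed by -1.19 in females and 0.022 in males. Reg3b differed by 1.29 in females and -0.21 in males. Duox2 differed by -0.36 in females and 0.81 in males. Each sex has 1 library a genotype, so this difference was not tested, and sex cannot be told apart from any other difference between the animals.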

How the results depend on the processing

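Genes tested numbered 14861 in the main fit, 24337 without a filter and 15349 to 15702 with 1 library left out. With all libraries edgeR called 537 genes, 7 of 169 list genes and 1 of the 10 genes. Over all genes the count was 350 with factors computed without mitochondrial genes, 1927 with DESeq2, 1632 without a filter, 1409 with sex as a covariate and 0 to 2290 with 1 library left out. It was 0 without KO replicate 1 (1219 higher and 1038 lower at an unadjusted p under 0.05) and 0 without KO replicate 2 (1010 and 977). List genes called numbered 13 with library size only, 37 with DESeq2, 19 without a filter, 35 with sex as a covariate and 0 to 45 with 1 library left out. Of the 10 genes, 2 were called higher with DESeq2, beside 952 of 14861 genes. With sex as a covariate 3 were called higher, beside 696 of 14861. Saa3 was called in 9 of 11 alternatives, with adjusted p of 0.290 without KO replicate 1 and 0.378 without KO replicate 2, where 3 libraries remain and the lone KO library is assumed to vary like the WT pair. Nothing is read from these Saa3 calls, since Saa3 entered the choice of genes by this contrast. The median log2 fold change of the 10 genes ran from 0.073 to 2.18 with 1 library left out. In the 150 bases before the start, C/EBP matches were found in 1 promoter, against 4 in the full window. By replicate number, no paired analysis was possible because the numbers follow accession order and the labels give the genotypes no shared number. The fit with sex as a covariate, its values given above, sets the libraries as 2 sex-matched KO and WT pairs, with sex read from the data. With 2 libraries a genotype, the spread of each gene is poorly known, and low counts limit Lcn2.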
